A study of Mus musculus with 8 samples.

Results

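The sites described here are promoter cytosines that lie outside CpG islands, shores and shelves (annotated interCGI in the table) and were highly methylated in cultured germline stem cells. A cytosine was included when its methylation level, averaged without weights over all 8 cell lines, was 80% or more. Of 203645 promoter cytosines, 23986 were interCGI, and 3345 of these (13.9% of interCGI sites, 1.64% of all sites) met the rule. The 3345 sites belonged to 2447 CpGs, since the strands of a CpG are separate rows, and to the promoters of 970 genes. The sites were thus selected on their measured levels, and the height of their levels is a description and not a result.

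Germline stem (GS) cells are spermatogonia with stem cell activity that are expanded in culture with GDNF and FGF2. The 8 lines came from F1 mice of C57BL/6 background, labelled wild type, after sorting testis cells for CD9, and each gave 1 library of genomic DNA. Lines 29, 37, 44 and 45 came from mice born after natural mating (control-F1), and lines 11, 17, 20 and 21 from mice born after intracytoplasmic sperm injection (ICSI-F1), in which a sperm is injected into the oocyte. The study calls the sperm used for ICSI-F1 wild type, while its methods take control sperm for ICSI from testes of untreated green mice, which carry an *Egfp* transgene. Whether the ICSI-F1 lines carry that transgene is not stated in the labels, and such a difference between the groups cannot be told apart from conception by ICSI. The comparison asks whether conception by ICSI left a difference in the DNA methylation of the male germline. The line numbers are also numbers of individual F1 mice in the study's supplement, but the labels do not tie lines to animals, and tests measure only the spread between these lines. The source names in the labels give the kind of conception for 4 libraries and only the cell type for the other 4, and the resulting label sets cross the groups (set 1: lines 29, 37, 11 and 17, set 2: lines 44, 45, 20 and 21). All sites here are read in bulk DNA, so a lower share of methylated cells and methylation of 1 allele cannot be told apart.

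DNA methylation in mammals is placed on the cytosine of CpG dinucleotides, usually on both strands, and is copied to the new strand at each cell division. CpG islands are CpG-rich stretches that cover many promoters of widely used genes and are mostly free of methylation. Promoters poor in CpGs belong more often to genes used in 1 tissue, and they are commonly methylated in cells that do not use the gene. Spermatogonia and sperm carry high methylation over most of the genome outside islands.

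Reduced representation bisulfite sequencing (RRBS) reads fragments cut by MspI at CCGG. The level of a site is the share of its reads that kept a cytosine after bisulfite. The scaled table gave a median of 55 to 64 reads per line at the 3345 sites. With the scaling undone, the median was 34 reads in control-F1 line 37, the lowest, and 60 in control-F1 line 45, the highest. At the median of 44 reads over all lines, counting alone gives a level of 95% an SD of 3.29 percentage points.

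Stretches of 8 promoters show what such sites look like. The first 4 are promoters in which every site in the table was included: *Casq2* (calsequestrin of heart muscle, chr3:102085867-102086026), *Tnni2* (troponin I of fast skeletal muscle, chr7:142441577-142441736), *Zap70* (a kinase of the T cell receptor, chr1:36761638-36761797) and *Sult2a4* (a sulfotransferase, chr7:13989950-13990109). *Vmn1r12* (a vomeronasal receptor, chr6:57156065-57156224) and *Musk* (the receptor kinase of the neuromuscular junction, chr4:58285800-58285959) hold sites that were higher in ICSI-F1 lines. *Pdyn* (the dynorphin precursor, chr2:129699901-129700060) and *Zbtb24* (a zinc finger protein, chr10:41450223-41450382) hold a site that was highly methylated on only 1 strand. Each stretch has 160 bases and is written 5′ to 3′ on the strand of its gene, which is the minus strand of GRCm38 (mm10) for *Sult2a4* and *Pdyn* and the plus strand for the others. Capitals mark the CpGs with an included site.
Casq2: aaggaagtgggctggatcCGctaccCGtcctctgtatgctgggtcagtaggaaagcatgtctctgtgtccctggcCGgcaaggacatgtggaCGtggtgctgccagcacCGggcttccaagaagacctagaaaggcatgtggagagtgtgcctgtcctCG
Tnni2: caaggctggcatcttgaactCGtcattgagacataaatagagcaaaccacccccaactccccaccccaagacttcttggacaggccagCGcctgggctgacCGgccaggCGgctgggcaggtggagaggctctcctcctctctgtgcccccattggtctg
Zap70: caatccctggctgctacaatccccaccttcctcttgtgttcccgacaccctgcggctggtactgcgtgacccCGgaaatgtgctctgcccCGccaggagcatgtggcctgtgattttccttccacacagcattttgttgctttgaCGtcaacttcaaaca
Sult2a4: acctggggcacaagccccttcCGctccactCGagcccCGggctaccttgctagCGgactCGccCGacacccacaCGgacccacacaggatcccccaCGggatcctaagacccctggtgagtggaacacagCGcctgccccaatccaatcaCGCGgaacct
Vmn1r12: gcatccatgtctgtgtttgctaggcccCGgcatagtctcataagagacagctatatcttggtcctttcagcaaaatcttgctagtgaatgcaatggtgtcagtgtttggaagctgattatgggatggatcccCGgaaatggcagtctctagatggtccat
Musk: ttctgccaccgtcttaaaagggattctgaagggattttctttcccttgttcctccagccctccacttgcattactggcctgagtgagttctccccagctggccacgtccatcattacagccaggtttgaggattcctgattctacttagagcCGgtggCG
Pdyn: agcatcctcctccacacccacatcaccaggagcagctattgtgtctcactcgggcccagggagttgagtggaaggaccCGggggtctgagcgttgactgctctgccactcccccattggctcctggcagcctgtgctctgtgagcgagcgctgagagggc
Zbtb24: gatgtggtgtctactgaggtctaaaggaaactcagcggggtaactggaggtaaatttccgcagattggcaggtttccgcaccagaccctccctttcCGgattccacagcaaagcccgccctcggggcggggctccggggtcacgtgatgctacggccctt
In these stretches *Casq2* and *Tnni2* have 6 and 4 CpGs and *Sult2a4* has 11, all of them included. *Zbtb24* has 10 CpGs, of which 1 is included.

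Levels at interCGI sites fell into a low and a high part. Of 23986 sites, 17828 had a mean level under 20%, 2813 lay from 20% to under 80%, and 3345 had 80% or more. Among the 3345, 218 had a mean of 80% to under 85%, 284 of 85% to under 90%, 687 of 90% to under 95% and 2118 of 95% to under 100%. At 38 sites every read in all 8 lines was methylated. The median of the site means was 96.3%, and the lower quartile was 93.3%. Every line had 80% or more at 2482 sites and 90% or more at 1393.

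**Figure D1:**
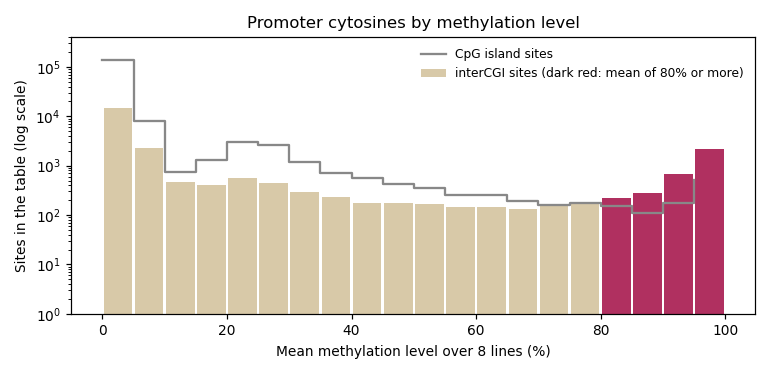
Number of promoter cytosines (log scale) by mean methylation level over the 8 lines, in steps of 5 percentage points, for interCGI sites (bars) and CpG island sites (grey line). The dark red bars are the 3345 sites described here, 2156 of them at 95% or more.

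The threshold cut through a thin part of this distribution. Just inside it lay a site of the long noncoding RNA gene *Gm4681* (chromosome 14, position 120196144) and a site of *S100z*, a calcium-binding protein (chromosome 13, position 95478768), with means of 80.07%. Just outside it lay a site of *Gm13393* and a site of *Ccdc130*, with means of 79.99% and 79.97%. The lines disagreed at these sites: *Gm4681* had 50%, 54.9%, 94.5% and 88.7% in control-F1 lines 29, 37, 44 and 45, and 100%, 94.6%, 98.1% and 59.7% in ICSI-F1 lines 11, 17, 20 and 21. A mean near 80% thus stood for a mixture of high and intermediate lines in this case. At the *S100z* site control-F1 line 37 alone was low, with 38.8%, and the other lines had 79.3% to 96.4%. The other strand of the same CpG had a mean of 19.3% at *S100z* and 3.55% at *Ccdc130*.

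The sites lay farther from gene starts than other interCGI sites. Their median distance to the start of their gene was 395 bp, against 175 bp for interCGI sites of 20% to under 80% and 81 bp for those under 20%. Of the interCGI sites within 100 bp of a start, 5.47% were included, and the share rose to 48.9% at 901 to 1000 bp. Most sites (3130) lay outside the exons and introns of GENCODE M21 genes. Of the rest, 162 lay in an intron, 50 in a noncoding exon and 3 in a UTR, and 127 sites lay downstream of the start.

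They also lay in CpG-poor sequence, with more repeat bases than around other interCGI sites. The 150 bases on either side of a site held a median of 6 CpGs, against 10 around interCGI sites of 20% to under 80%, 18 around those under 20% and 24 around the 952 island sites of 80% or more. Of interCGI sites with 5 or fewer CpGs in the window, 56.3% were included, and of those with more than 30, 0.437%. The median GC content was 51.2%, against 60.8% around interCGI sites under 20%. Soft-masked bases, which the reference marks as repeats, made up 21.2% of the windows. This compares with 13.5% around interCGI sites of 20% to under 80% and 6.89% around those under 20%. As neighbouring sites share a window, these figures are descriptions without a test.

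**Figure D2:**
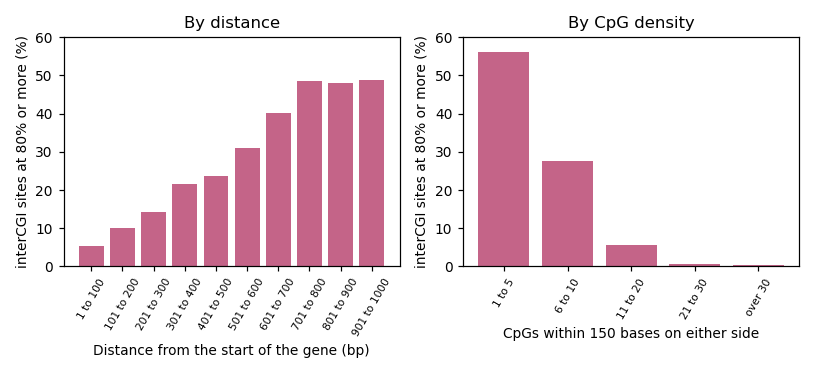
Share of interCGI sites (%) with a mean level of 80% or more, by distance from the start of the gene in steps of 100 bp (left) and by the number of CpGs within 150 bases on either side of the site (right). The share rises from 5.47% to 48.9% with distance and falls from 56.3% to 0.437% with CpG number.

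Sequence motifs of CpG-rich promoters were rare around the sites, and AT-rich motifs were more frequent than around all promoter sites. Motifs were searched on both strands of the same windows. The GC box GGGCGG, the motif of SP factors, was found around 10.4% of the sites, against 58.6% of interCGI sites under 20% and 69.4% of all promoter sites. The cAMP response element TGACGTCA was found around 0.478%, against 2.75% of all promoter sites, and the ETS motif CCGGAAGT, which contains a CCGG, around 1.94%, against 5.65%. NRF1 (GCGCATGC) had 1.94% against 4.27%, and the E box CACGTG had 6.04% against 10.3%. The TATA box TATAAA was found around 12.8%, against 8.50% of interCGI sites of 20% to under 80% and 3.80% of all promoter sites. For the GATA motif AGATAA these shares were 11.2%, 9.74% and 3.69%, so that it differed little between the first 2 classes. The CCAAT box CCAAT differed little, with 32.8% and 30.8%. A match of letters is not a binding site. Windows with fewer CpGs and less GC can hold fewer of the CpG-containing motifs and more of the AT-rich ones.

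Transcripts without a coding sequence took a large share. Of the 3345 sites, 36.6% were assigned to long intergenic noncoding RNA genes, against 21.8% of interCGI sites of 20% to under 80% and 10.3% of those under 20%. By gene, 293 of 527 such genes with an interCGI site (55.6%) had an included site, as did 34 of 65 antisense genes (52.3%) and 620 of 1912 protein-coding genes (32.4%), against 970 of 2536 genes in all (38.2%). The sex chromosomes held few. Of 549 interCGI sites on the X chromosome 10 were included (1.82%), and of 79 on the Y chromosome 0, while chromosome 8 had 254 of 1183 (21.5%).

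Methylation on the other strand divided the sites. Of 1217 CpGs with both strands in the table, 898 were included on both strands, with a median gap of 1.68 percentage points between them. At 87 CpGs the other strand had 20% to under 80%. At the remaining 232 CpGs it had less than 20%, with a median of 4.93%. All 232 sites of this last kind lay in CCGG, the sequence that MspI cuts, and they belonged to 215 genes. Among those with another CpG outside CCGG within 100 bp, these neighbours had a mean under 20% around 201 of 203, with a median of 2.46%.

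Outside CCGG no such site occurred. Of the 1743 included sites outside CCGG, 0 had the other strand under 20%, and 1272 of 1327 with a neighbour (95.9%) had neighbours at 80% or more. Of all 3345 sites, 1602 (47.9%) lay in CCGG, against 17.1% of all promoter sites and 98.2% of island sites of 80% or more. The part of the fragment end in these values was not tested. Results below are therefore also given without the 232 sites, which leaves 3113 sites in 764 genes. For another 865 sites in CCGG the other strand was not in the table, and neighbours were under 20% around 18 of the 495 that had any.

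**Figure D3:**
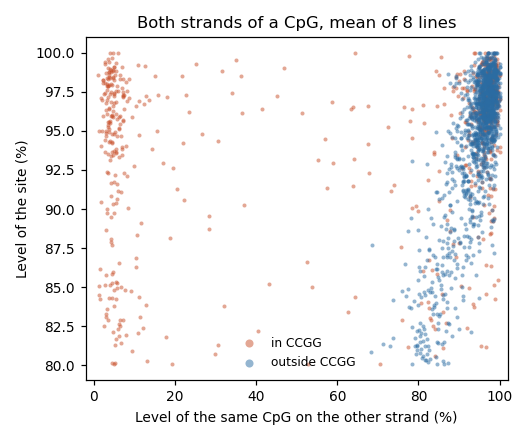
Mean level over 8 lines of each included site (y axis, %) against the level of the same CpG on the other strand (x axis, %), for sites in CCGG (orange) and outside it (blue). The orange points at the left are the 232 sites whose other strand had less than 20%, and no blue point lies there.

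*Wbscr25*, *Mtmr14*, *Slc25a13* and *Wdyhv1*, chosen after their values were seen as the CpGs with the widest strand gap, show this kind. In *Slc25a13* (a mitochondrial aspartate-glutamate carrier) the minus strand at position 6217218 of chromosome 6 had 97.0% to 100% in the 8 lines. The plus strand at the adjacent position 6217217 had 0% to 6.25% in the same lines. The gap was present in both groups, with 99.3% and 4.70% in control-F1 and 99.2% and 1.11% in ICSI-F1 lines. In the *Pdyn* and *Zbtb24* stretches printed above, the marked site had 81.4% and 80.1%, and the other sites of the table in the stretch had means of 4.79% and 5.91%.

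At many genes every covered site of the promoter was included. Of the 970 genes, 586 had no site in the table that was not included, 384 had 1 included site, and 74 had 10 or more. Of the 860 genes among them with 2 or more interCGI sites, 480 had all of these sites included. As RRBS reads only part of a promoter, these numbers do not show methylation of the whole promoter. *Sult2a4* led with 28 of 28 sites over 338 bp, from 310 to 647 bp upstream of its start, and 92.9% of these cytosines are soft-masked. Its promoter mean was 94.3%, 98.4%, 97.8% and 94.1% in control-F1 lines 29, 37, 44 and 45, and 95.8%, 95.4%, 91.0% and 94.0% in ICSI-F1 lines 11, 17, 20 and 21. The groups overlapped. Sulfotransferases of this family have close copies in the genome, and reads may be shared between them, which also holds for olfactory, vomeronasal and immunoglobulin genes.

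Of the 4 next longest series, 3 were in long noncoding RNA genes and 1 in a gene segment. *Gm13206* had 21 of 21 sites with a mean of 95.7%, and *A530010L16Rik* had 20 of 20 with 95.8%, within an intron of *Gm20388*. *Igkv15-97*, an immunoglobulin kappa variable pseudogene, had 19 of 21 sites with 95.7%, all of them soft-masked, and *Gm50316* had 18 of 18 with 95.9%. *Rnf186*, a ubiquitin ligase of the gut, had 17 of 17 with 96.8%, as many as *Fcgrt*, described with the immune receptors. Over *Sult2a4* and these 5 genes the SD between the 8 lines was 1.17 to 3.0 percentage points.

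Gene families with a role in 1 tissue were then taken in turn, each as the number of its genes with an included site among those with an interCGI site. Over all genes this was 970 of 2536 (38.2%), or 764 (30.1%) without the 232 sites of the strand kind above. Family sizes are small, sites within a promoter are not independent, and no family was tested against another.

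Chemosensory receptors were methylated at most genes with data. Of 24 olfactory, vomeronasal and taste receptor genes, 20 had an included site (65 of 111 sites), none of them of the strand kind. *Olfr1298*, an odorant receptor, had 12 of 12 sites in soft-masked sequence. Its mean was 61.9% in control-F1 line 44 and 87.2% to 99.2% in the other 7 lines, so that 1 line stood apart. *Olfr1344* and *Olfr978* had 6 of 6 sites each, with means of 96.2% and 95.8%.

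Genes of contractile tissue were methylated in most of their sites. Of 9 skeletal and heart muscle genes, 7 had an included site (6 without the strand kind), with 54 of 64 sites. *Casq2*, the calcium store protein of heart muscle, had 16 of 16 sites with a mean of 96.1%, and its line means were 94.8% to 97.7%. *Tnni2* had 15 of 15 with 97.4% and line means of 96.4% to 98.6%. *Lmod3*, an actin filament nucleator of muscle, had 11 of 14 with 91.1%. The lines of both groups overlapped in all 3 genes.

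Blood, liver and gut genes with an interCGI site were few, and each of them had an included site. Of 9 blood cell genes in the table, 4 had an interCGI site. All 4 had an included site, with 9 of 9 sites: *Zap70* 4, the T cell kinase *Lck* 3 and perforin (*Prf1*) 1 among them. The *Zap70* sites lay 14 to 88 bp from the start and had a mean of 92.9%, with 80.6% in control-F1 line 45 and 92.8% to 97.5% in the others. Of 10 liver and gut genes in the table, 6 had an interCGI site, and all 6 had an included one, with 19 of 23 sites. *Apoc2* (an apolipoprotein) had 7 sites with a mean of 97.0%, *Pck1* (a gluconeogenic enzyme) 5 with 98.3%, and *F7* (coagulation factor VII) 4 with 96.6%.

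Of 41 genes for immune receptors and cytokines, 22 had an included site, or 18 without the strand kind. *Fcgrt*, the neonatal Fc receptor, had 17 of 17 sites with a mean of 96.1% and line means of 94.8% to 97.2%. *Cd200r2* had 10 of 10 with 97.2%. *Cd2*, an adhesion receptor of T cells, had 8 of 8 with 91.5%, and its line means were lowest at 75.3% in control-F1 line 37 and 82.9% in ICSI-F1 line 17.

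Epithelial and secreted products showed a similar picture. Of 13 genes for mucins and secreted defence proteins 11 had an included site, with 39 of 61 sites, among them the cystatin *Cst6* (8 sites), the mucin *Muc20* (5) and the beta-defensin *Defb25* (5). Of 16 keratin and cornified envelope genes 9 had one, or 8 without the strand kind. *Krt39* had 9 of 9 sites with 76.3% in control-F1 line 37 and 94.2% to 98.4% in the other lines, and *Krt35* 8 of 17. The hair keratin-associated gene *Krtap5-4* had 4 of 4. Of 14 claudin and connexin genes in the table, 4 had an interCGI site, and all 4 had an included one (3 without the strand kind). These were 11 of 12 sites in *Cldn14*, a tight junction protein, 4 of 4 in *Cldn24* and 1 of 4 in *Cldn16*, among others.

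Enzymes and transporters were covered in part. Of 21 genes of xenobiotic and steroid metabolism 10 had an included site (9 without the strand kind), among them *Sult2a4*, the cytochrome *Cyp2c55* and the carboxylesterase *Ces2b*, the last 2 with 4 of 4 sites each. Of 49 solute carrier genes 17 had one, or 13. *Slc12a1*, the salt cotransporter of the kidney, had 14 of 14 sites with a mean of 97.6%, *Slc5a4a* 9 of 9 with 95.4% and *Slc7a15* 7 of 7 with 94.6%. Of 13 serine protease and serpin genes 7 had one, among them *Klkb1* (plasma kallikrein) with 10 of 10 sites, *Tmprss6* with 3 and *Serpina1a* with 2. *Klkb1* had 75.3% and 85.4% in control-F1 lines 44 and 45 and 94.8% to 97.9% in the other 6 lines.

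Ion channels and G protein coupled receptors had few included sites beside the 13.9% of all interCGI sites. By gene, 34.8% of each list had an included site, near the 38.2% over all genes. Of 23 ion channel genes 8 had one (6 without the strand kind), with 11 of 247 sites, among them the muscle sodium channel *Scn4a* (3) and the acetylcholine receptor subunits *Chrnb3* (2) and *Chrng* (1). Of 23 G protein coupled receptor genes 8 had one (6), with 13 of 244 sites, among them *Gprc5d* (4), *Gpr20* (2) and *Lpar5* (2). Of 18 genes for collagens, laminins, integrins and metalloproteases 8 had one (4), with 22 of 166 sites (13.3%), close to the share over all interCGI sites. Among them were *Adam6b* and *Adam6a* at 6 of 6 sites and means of 98.6% and 98.4%, and *Col6a5* at 5 of 17. Of 3 cadherin genes 1 had one, *Cdh26*, with 3 of the 7 sites of the list.

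Zinc finger, homeobox and germline genes had few included sites, with 2.87%, 1.30% and 1.89% of their interCGI sites, against 13.9% over all genes. By gene the shares were 26.7%, 20% and 10%, against 38.2%. The pluripotency, imprinted, DNA methylation and small RNA lists each held 3 or fewer genes with an interCGI site, too few for a share. Of 86 zinc finger genes 23 had an included site, with 26 of 906 sites, but only 4 genes and 6 sites were left without the strand kind. *Zbtb48* had 3 sites, none of the strand kind, *Zfp790* had 2 and *Zbtb24* 1, all of the strand kind. Of 5 homeobox genes 1 had one, *Hoxd10*, with 1 of its 58 sites. Of 2 pluripotency and trophoblast genes 1 had one, *Lin28a*, an RNA-binding protein of pluripotent cells, with 2 of its 8 sites. These sites of *Hoxd10* and *Lin28a* were all of the strand kind. Of 10 germline and meiosis genes, *Ropn1*, a protein of the sperm tail, had 2 sites among 106 sites of the list, at 80.3% and 86.0%. Its mean ranged from 56.8% in control-F1 line 29 to 100% in ICSI-F1 line 21. Of 3 imprinted genes, *Zim1* had 1 site of the strand kind and *Th*, the tyrosine hydroxylase gene, 1 that was not. The DNA methylation factors had no interCGI site in the table, and of microRNA and small RNA genes 0 of 1 had an included site. Genes known only by a number had one at 283 of 494 (*Gm*) and 75 of 168 (*Rik*), or 267 and 63 without the strand kind. *Gm50026* had 16 of 16 sites, and *4930533P14Rik* and *A930033M14Rik* had 11 of 11 each.

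The lines differed mainly in a minority of sites. The mean level of the 3345 sites was 93.3%, 92.2%, 96.0% and 94.9% in control-F1 lines 29, 37, 44 and 45, and 94.8%, 95.2%, 95.3% and 96.1% in ICSI-F1 lines 11, 17, 20 and 21. Lines 29 and 37 were the lowest, and the groups overlapped. The group means were 94.1% ± 1.68 (SD, n = 4) for control-F1 and 95.3% ± 0.580 (SD, n = 4) for ICSI-F1, a difference of 1.26 percentage points. It was 2.25 within label set 1 and 0.272 within label set 2, and 0.629 without line 37. Over all promoter sites the difference was −0.147, but other methylated classes also had a positive one. It was 4.73 at interCGI sites of 20% to under 80% (2.17 without line 37) and 2.23 at island sites of 80% or more (−0.504 without line 37). Without the 232 sites of the strand kind it was 1.15, and for the 1743 sites outside CCGG 0.985.

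A line under 50% was found at 140 of the 3345 sites, in 133 cases 1 line and in 7 cases 2. Line 37 had 70 such sites, line 29 had 43, and the other lines had 1 to 11. At 116 sites only control-F1 lines were under 50%, at 23 only ICSI-F1 lines, and at 1 both. Line 37 also had the fewest reads, with a median of 26 unscaled reads at its 70 sites, and 28 of the 70 were of the strand kind, at which its mean was 82.9%, against 91.2% to 96.1% in the other 7 lines. The part of read depth and of the library in these counts was not tested. Outside CCGG, 61 sites had a line under 50%, 21 of them in line 37 and 20 in line 29.

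**Figure D4:**
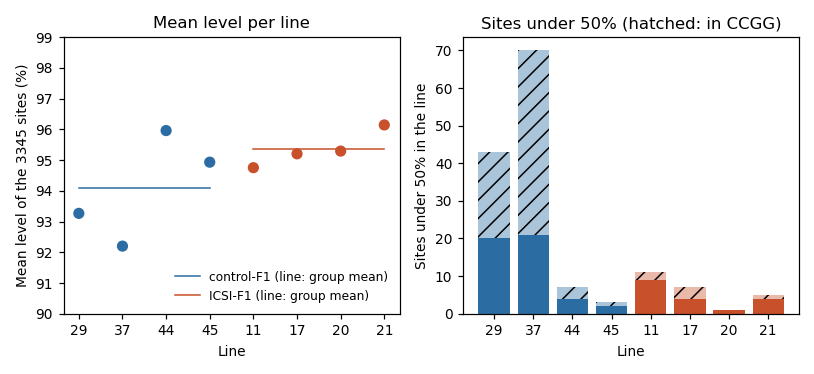
Left, mean level of the 3345 sites in each line (%, axis from 90% to 99%) with group means as horizontal lines. Right, number of sites under 50% in each line, with sites in CCGG hatched. Control-F1 lines 37 and 29 have the lowest means (92.2% and 93.3%) and the most sites under 50% (70 and 43).

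At 5 of the 6 sites with the widest spread over lines, the lowest line was far below the next one. At the *Krt35* site at position 100096391 of chromosome 11, control-F1 lines 29, 37, 44 and 45 had 100%, 53.3%, 100% and 70.6%, and ICSI-F1 lines 11, 17, 20 and 21 had 26.9%, 96.0%, 100% and 100%. The site of *L3mbtl1*, a chromatin reader, at position 162943260 of chromosome 2 had 17.2% in control-F1 line 37 (34 unscaled reads, 95% Wilson interval 8.35% to 33.5%) and 81.8% to 100% in the other lines. Wilson intervals cover counting error only, since the reads have no molecular identifiers. It is of the strand kind, with 3.59% on the other strand. *Zbtb24* at position 41450320 of chromosome 10, also of this kind, had 20% in line 37 and 66.7% to 100% elsewhere. The *Gm48539* site at position 15301176 of chromosome 12, outside CCGG, had 22.8% in ICSI-F1 line 21 (127 unscaled reads, 16.4% to 30.9%) and 73.7% to 100% in the others. *Gm19276* at position 10814682 of chromosome 15 had 25.0% in ICSI-F1 line 17 and 60.4% to 100% in the others. The groups overlapped at these 5 sites, and the other one, in *Gm28196*, is given with the group differences. Over all 3345 sites the median SD over lines was 4.33 percentage points, against 15.5 for interCGI sites of 20% to under 80%.

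The study called sites by the size of the difference and left out those with a reversed change in any sample, which can be read in more than one way. Here, sites were called when the group means differed by more than 20 percentage points and each of the 4 ICSI-F1 lines deviated from the control-F1 mean in the same direction, named the 20% rule below. By this rule 57 of the 3345 sites (1.70%) in 28 genes were higher in ICSI-F1 lines, and 0 were lower. Over all promoter sites, 0.274% were called higher and 0.0506% lower. The share at interCGI sites of 20% to under 80% was 9.56% higher and 2.24% lower. Of the 57 sites, 34 lay in CCGG and 4 were of the strand kind. Within label set 1 alone, 175 sites were higher and 23 lower, and within label set 2 alone 32 and 5. The share higher became 3.02% without line 44 and 2.72% without line 45. Under the stricter reading, in which the lines of the groups must not overlap, the counts were smaller. Over all promoter sites it called 137 higher and 18 lower, against 557 and 103 by the 20% rule. The counts that the study reports, over a larger set of sites, lie much nearer to those of the stricter reading. Of the 3345 sites, 16 (0.478%) were called higher in this way, against 0.0673% of all promoter sites, and 0 were called lower, against 0.00884%. Of the 2813 interCGI sites of 20% to under 80%, 61 were called higher and 11 lower in this way.

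No site passed the logistic model. The model, which takes the spread between lines at each site into account, gave 0 of 3307 tested sites at a false discovery rate of 0.05 (Benjamini-Hochberg), with 0% over all 196818 sites tested and a smallest adjusted p of 0.129. With an unadjusted p under 0.05 there were 348 of the 3307 sites, against 13901 of all 196818 tested sites (7.06%). Of these, 227 were higher (6.79% of the 3345) and 121 were lower (3.62%) in ICSI-F1 lines, against 2.6% and 4.47% over all tested sites. limma on log2 ratios of reads also gave 0 sites at that rate. At an unadjusted p under 0.05 it gave 135 higher and 76 lower of the 3307 sites, against 2344 higher and 4517 lower of all 196818 sites. Without line 44 the logistic model gave 12 of 3288 sites, all higher in ICSI-F1 lines, against 70 of all 192970 sites tested. Without line 37 it gave 4 of 3283, also all higher, against 9 of 195185. Regardless of size, every ICSI-F1 line lay above every control-F1 line at 46 sites (1.38%) and below at 33 (0.987%), against 0.427% and 0.679% of all promoter sites.

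**Figure D5:**
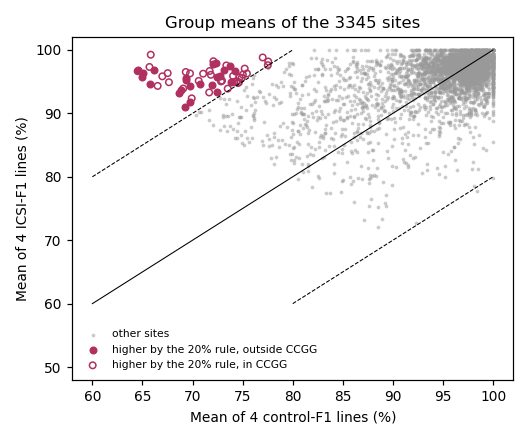
Mean of the 4 ICSI-F1 lines (y axis, %) against the mean of the 4 control-F1 lines (x axis, %) at the 3345 sites, with equality as a solid line and differences of 20 percentage points as dashed lines. The 57 sites higher by the 20% rule are red, filled outside CCGG (23) and open in CCGG (34), and no site was called lower.

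The largest increase lay upstream of *4930505O20Rik*, an antisense transcript on chromosome 8. At position 80515305, 832 bp from its start, control-F1 lines 29, 37, 44 and 45 had 45.5%, 41.1%, 87% and 89.8%, and ICSI-F1 lines 11, 17, 20 and 21 had 100%, 100%, 97.0% and 100%. Every ICSI-F1 line was above every control-F1 line, and the control-F1 lines fell into a low and a high pair. The difference of 33.4 percentage points (logistic model, adjusted p = 0.218) was 56.7 within label set 1 and 10.1 within label set 2. Its CpG at positions 80515179 and 80515180 differed by 30.8 percentage points on each strand, with no overlap.

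*Gm28196*, a long noncoding RNA gene on chromosome 2, held the smallest p. At position 129947749 control-F1 lines 29, 37, 44 and 45 had 50.8%, 78.9%, 67.1% and 69.2%, and ICSI-F1 lines 11, 17, 20 and 21 had 89.3%, 100%, 92.4% and 95.6%. The groups did not overlap. The difference of 27.8 percentage points (adjusted p = 0.129 in the logistic model) was 29.8 within label set 1 and 25.8 within label set 2. This site lies in CCGG and had 19 to 124 scaled reads per line. Its other strand was not in the table and it had no neighbour outside CCGG within 100 bp, so whether it is of the strand kind could not be checked. At position 129947933, 635 bp from the start, the control-F1 lines had 30.4%, 100%, 45.3% and 82.4%, and the ICSI-F1 lines 100%, 87.5%, 100% and 100%, and here the groups overlapped. The difference of 32.3 percentage points fell to 21 without line 29.

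The *Vmn1r12* site at position 57156092 of chromosome 6, the CpG nearest to the 5′ end of the printed stretch, was read deeply. With 68 to 193 scaled reads per line, control-F1 lines 29, 37, 44 and 45 had 41.5%, 52.3%, 86.8% and 77.5%, and ICSI-F1 lines 11, 17, 20 and 21 had 100%, 100%, 88.7% and 97.9%. The ICSI-F1 lines were all higher, by 32.1 percentage points in the mean (logistic model, adjusted p = 0.176). The difference was 53.1 within label set 1 and 11.2 within label set 2. The other strand of this CpG had a mean of 84.0%.

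*Musk* had its site at position 58285959 of chromosome 4, the base before the gene's start and the last base of the printed stretch. Control-F1 lines 29, 37, 44 and 45 had 51.4%, 51.9%, 93.9% and 92.2%, and ICSI-F1 lines 11, 17, 20 and 21 had 100%, 96.9%, 97.5% and 97.2%. As at *4930505O20Rik*, lines 29 and 37 were the low ones. The difference of 25.6 percentage points (logistic model, adjusted p = 0.360) was 46.8 within label set 1 and 4.33 within label set 2.

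*Gm10198* on chromosome 13 had a site downstream of its start, in an intron of *Gm15286*. At position 111593406 control-F1 lines 29, 37, 44 and 45 had 76.7%, 54.9%, 91.6% and 72.0%, and ICSI-F1 lines 11, 17, 20 and 21 had 100%, 96.4%, 93.6% and 100%. The groups did not overlap, and the difference was 23.7 percentage points (logistic model, adjusted p = 0.233), with 32.4 and 15.0 within the label sets. *Krt39* at position 99521627 of chromosome 11 had 100% in all 4 ICSI-F1 lines and 91.3%, 59.8%, 86.3% and 100% in the control-F1 lines, a difference of 15.7 percentage points that does not reach the 20% rule. It was 7.47 without line 37, and 24.5 and 6.86 within the label sets.

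The other large increases had overlapping groups. At *Gm12249* (chromosome 11, position 57973175) control-F1 lines 29, 37, 44 and 45 had 50.9%, 36.7%, 100% and 75.2%, and the ICSI-F1 lines 93.2% to 100%. At *Kat8*, a histone acetyltransferase (chromosome 7, position 127911854), the control-F1 lines had 65.4%, 31.0%, 89.3% and 84.9%, the ICSI-F1 lines 84.8% to 100%, and the other strand 30.7%. The *Pdyn* site (chromosome 2, position 129699982) had 44.8%, 39.5%, 92.9% and 90.7% in control-F1 and 83.3% to 100% in ICSI-F1 lines, with 6.76% on the other strand and 4.54% at its neighbours. Lines 29 and 37 were low at all 3 sites. The differences were 31.6, 27.3 and 28.9 percentage points, and each adjusted p was 0.702 in the logistic model. Within label set 1 they were 55.2, 44.2 and 49.5, and within label set 2 they were 7.99, 10.3 and 8.22. Without line 37 the difference was 15.0 at *Kat8* and 19.7 at *Pdyn*, which no longer reach the 20% rule.

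Beside more sites of *4930505O20Rik*, *Gm28196* and *Gm10198*, the sites over 20 percentage points with no overlap, named after their values were seen, included those of *Gm34312*, *Gm39566*, *Nod2*, *Olfr705* and *Ms4a15*, with differences of 20.1 to 24.5. At *Nod2*, a sensor of bacterial cell wall, the site was of the strand kind, with 4.19% on the other strand. Its lowest value, 43.3% in line 37, rests on 16 unscaled reads. At *Gm39566* the lowest value, 47.6% in line 37, rests on 11 unscaled reads (95% Wilson interval 21.3% to 72.0%), and the other strand had a mean of 94.9%. *Gm34312* had 93.4%, 53.6%, 91.9% and 43.6% in control-F1 lines 29, 37, 44 and 45 and 93.8% to 97.0% in ICSI-F1 lines, so that lines 37 and 45 were low there.

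Decreases of more than 20 percentage points were found at 2 sites, and neither met the rule, because ICSI-F1 lines did not all deviate from the control-F1 mean in the same direction. Both are named after their values were seen. *Gm49231* on chromosome 15 (position 3128025) had 95.8% to 100% in control-F1 lines and 44.4%, 100%, 100% and 66.7% in ICSI-F1 lines 11, 17, 20 and 21. *Sult2a4* at position 13990050 of chromosome 7 had 100% in all control-F1 lines and 100%, 83.8%, 95.5% and 40% in the ICSI-F1 lines. The last value rests on 10 reads (95% Wilson interval 16.8% to 68.7%), and the other strand of this CpG had a mean of 98%.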

How the data were processed

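Genomic DNA of 8 GS cell lines was digested with MspI and read by RRBS. Per the authors' methods and processing notes, reads were trimmed (Trim Galore 0.5.0), aligned to mm10 in non-directional mode (Bismark 0.20.0) and counted with methylKit (1.16.0 in the notes; the methods give another version). The authors scaled the lines to one another, kept cytosines with at least 10 reads in all 8 lines and did not join strands. The deposited table therefore holds scaled and rounded read numbers, treated here as a score and not as raw counts. The factors (1 to 1.875) were recovered from the values.

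Levels, group means and the 20% rule (the study's threshold, with the looser reading of its exclusion of reversed sites) were computed with Python 3.11.15 (numpy 2.4.6, pandas 2.3.3, scipy 1.17.1). A quasi-binomial logistic model per site, with dispersions moderated by limma 3.58.1 in R 4.3.3 and held at 1 or more, was tested on simulated data first and adjusted over 196818 sites by Benjamini-Hochberg. It left out 38 of the 3345 sites, at which no read was unmethylated. Sequence, repeats and gene models came from GRCm38.p6 and GENCODE M21, in which 9216 of 9224 gene IDs were found. The sites and the 24 gene lists were chosen with earlier results of these data known. Named were the genes with most sites or the longest runs of them, up to 3 genes per list, and the sites with the largest changes, largest SD, smallest p or levels nearest the threshold. Alternatives were other thresholds, at least 20 reads, joined strands, label sets and each line left out. Sites in CCGG, and sites with the other strand under 20%, were set apart after the data were seen. One site is not reported here.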

Additional observations from a re-analysis of the deposited data

Results flagged for a closer look

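In each group of 4 lines, a line was singled out when its gap to the nearest other line took up more of the group's range than Dixon's 95% critical value allows. Over the results described above, 56 groups were examined and 8 met it. Chance gives about 1 in 20 for groups not chosen by their values, but many of these sites were named for their spread or change, so the number of flags cannot be set against that rate. Control-F1 line 37 stood below the others in the promoter means of *Gm13206* (91.7%, others 96.3% to 96.8%) and *A530010L16Rik* (91.7%, others 97.5% to 98%). At single sites, ICSI-F1 line 11 stood apart at *Krt35* (26.9%), line 21 at *Gm48539* (22.8%) and *Gm4681* (59.7%), and line 17 at *Gm28196* position 129947933 (87.5%) and *Pdyn* (83.3%). At the last 2 sites the other 3 ICSI-F1 lines had 100%, as at *4930505O20Rik* position 80515305, where line 20 had 97.0%. With 3 lines tied at 100%, any other value in the remaining line meets the criterion, so the flags at these sites say nothing about the size of the gap. The part of read depth in these values was not tested.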

How the results depend on the processing

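No paired analysis was possible because the groups share no replicate numbers. The number of sites was 3302 to 3440 with a line left out, 2161 CpGs with strands joined and 1743 outside CCGG. The difference between group means stayed positive in all settings run (0.629 to 1.88 percentage points with a line left out, 0.130 as the median over sites). Sites higher by the 20% rule were 1.70% of all, 1.32% to 3.02% with a line left out, 0.478% without overlap, 5.98% at 10 and 0.209% at 30 percentage points, 1.39% of CpGs with strands joined, 5.23% and 0.957% in label sets 1 and 2, and 1.32% outside CCGG. Sites lower were 0 to 3 with a line left out, 2 without the exclusion of reversed lines, 17 at 10 percentage points, and 23 and 5 in label sets 1 and 2. The logistic model gave 0 to 12 sites with a line left out (1 without line 20), 1 with at least 20 reads and 348 at an unadjusted p under 0.05. It gave 0 without moderation, with the label set as a covariate, with the scaling undone and by limma. The causes were not tested, other than fewer lines or sites in a fit. A GC box was found around 5.05% of the sites when 50 bases on either side were searched, against 10.4% with 150. With 34 to 60 unscaled reads per line at the median, differences of a few percentage points at a single site were not detectable. Far larger differences also failed to pass the logistic model. The *Vmn1r12* site at position 57156092 differed by 32.1 percentage points without overlap, with an SD of 21.2 between control-F1 lines. Its adjusted p was 0.176 in the logistic model, and the smallest at any included site was 0.129. The absence of passing sites therefore does not show that large differences were absent.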
